A study of Mus musculus with 55 samples.

Results

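IL-2146 is one of the 29 Collaborative Cross (CC) lines whose livers were profiled by RNA sequencing, and it was represented by 2 mice. These 2 mice, chosen by their strain label, were set against the 53 mice of the 28 other strain labels, out of 55 mice in all. Of the other lines, 8 held 1 mouse, 15 held 2 and 5 held 3. CC lines are recombinant inbred lines bred from a shared set of founder strains, so each line carries its own fixed mosaic of founder alleles and its mice are close genetic copies of each other. All mice were untreated males fed chow freely under a light-dark cycle. Both IL-2146 mice were 9.3 weeks old and weighed 18.4 and 21.6 g, while the other mice were 8.0 to 11.9 weeks old and weighed 12.8 to 38.0 g. The hour of tissue collection is not given in the sources used here. Since both mice share 1 genotype, the test below took the line as the unit, and it cannot tell the genotype apart from anything else that the 2 mice shared.

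Most liver RNA comes from hepatocytes, which make plasma proteins and carry out drug, lipid and amino acid metabolism, while the walls of the blood sinusoids are built by fenestrated endothelial cells, with vitamin A-storing stellate cells beneath them. Mitochondria hold a small genome of their own, which encodes core subunits of respiratory complexes I, III, IV and V, and nuclear genes encode the remaining subunits and the mitochondrial ribosome. The liver also runs a circadian clock, a loop in which CLOCK and ARNTL drive genes such as Dbp.

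The IL-2146 libraries were deep, and they stood apart from the others in several ways. They held 33953000 and 30878000 estimated reads, against 20542700 to 33067000 in the other mice. Mitochondrially encoded genes took 0.771% of the reads in mouse 1 and 3.13% in mouse 2, against 4.23 to 8.62% in the other mice. Transcript levels also followed base composition. Among 8165 expressed genes, the tenth with the highest GC content exceeded the tenth with the lowest by a log2 difference of 1.43 in mouse 1 and 0.60 in mouse 2, each taken relative to the median mouse. In the other mice this difference ran from -0.61 to 0.29. The tenth with the longest transcripts, set against the tenth with the shortest, lay at -0.81 and -0.53, against -0.48 to 0.33 in the other mice. Both trends were thus outside the range of all other mice in both animals, and steeper in mouse 1. Each level is therefore given as deposited and again after each mouse's own trend with GC content and length was taken out, called corrected below. After correction the GC difference was 0.13 and 0.05 in the IL-2146 mice and -0.05 to 0.02 in the others.

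**Figure D1:**
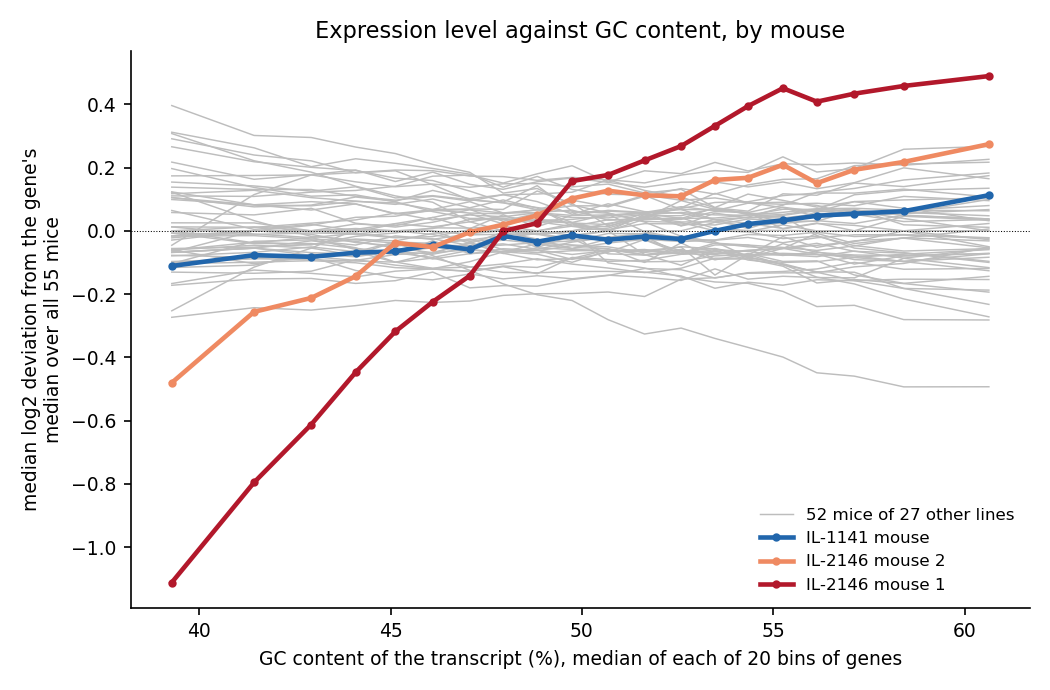
Median log2 deviation from the median mouse (y axis) in 20 bins of genes ordered by the GC content of their transcripts in percent (x axis), 1 line per mouse. The IL-2146 mice rise with GC content, mouse 1 (dark red) more steeply than mouse 2 (orange), while IL-1141 (blue) runs among the 52 mice of the 27 other lines (grey).

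The ends of this scale are shown by the coding sequence of a gene that was low in IL-2146 and of one that was high. The capitals mark G and C. The first 120 coding bases of mt-Nd3, a complex I subunit, lie at chrM:9459-9578 on the plus strand (NCBI37/mm9) and are 33.3% GC, and those of Gamt, the enzyme that makes creatine, lie at chr10:79723527-79723646 on the minus strand and are 70.8% GC. Over the whole transcript the GC content was 33.0% for mt-Nd3 and 59.7% for Gamt.
mt-Nd3: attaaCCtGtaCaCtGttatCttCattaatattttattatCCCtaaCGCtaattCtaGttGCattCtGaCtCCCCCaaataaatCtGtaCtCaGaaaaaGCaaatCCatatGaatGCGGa
Gamt: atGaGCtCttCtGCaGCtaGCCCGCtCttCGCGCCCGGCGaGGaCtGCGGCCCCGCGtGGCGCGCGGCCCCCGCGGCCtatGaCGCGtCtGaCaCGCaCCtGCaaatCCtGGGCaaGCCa

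One mouse of another label resembled the IL-2146 mice. Each gene's log2(FPKM + 0.5) was expressed as its deviation from the gene's median over all mice, and these deviations were correlated between mice across genes, as a description. The IL-2146 mice correlated with each other at r = 0.81. The single mouse of line IL-1141 correlated with them at 0.63 and 0.72, whereas the highest value among the remaining 52 mice was 0.28 with mouse 1 and 0.34 with mouse 2. Line mates of other lines lay between 0.11 and 0.92, with a median of 0.77 over 30 pairs. The IL-1141 mouse thus stood to the IL-2146 mice as line mates did, although its label names another line and its GC difference of 0.18 lay within that of the other mice. After correction its correlations were 0.66 and 0.74. The authors compared array genotypes with genotypes read from the RNA sequencing and reported low mismatch within a strain. Their text gives no value for a single line or mouse. Whether the lines are related or a label is wrong was not tested here. If either holds, the range of all other mice includes a relative or line mate of IL-2146. The values of the IL-1141 mouse are given below beside those of IL-2146, and counts are given with and without it.

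**Figure D2:**
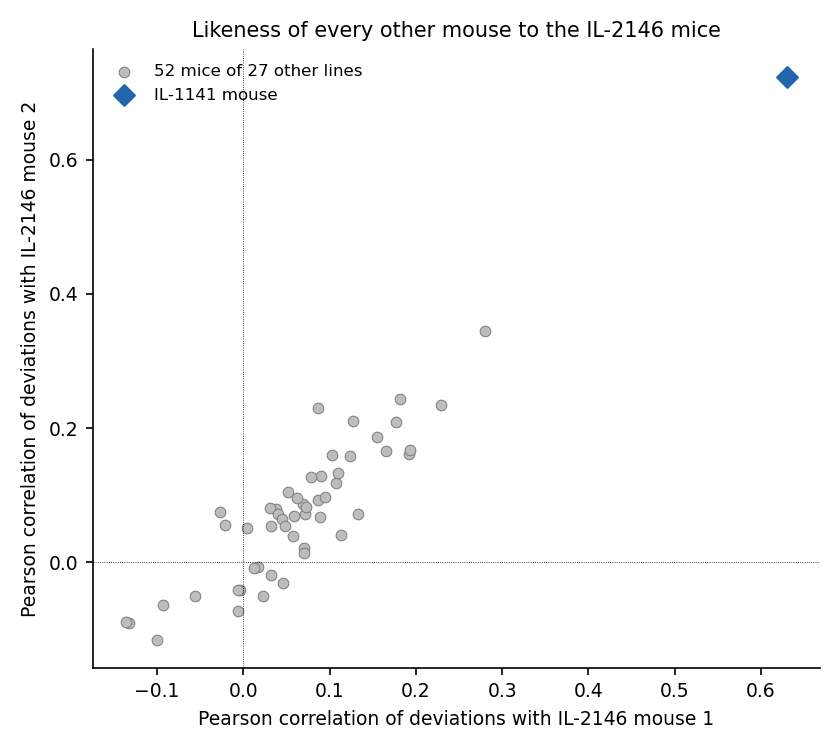
Pearson correlation of gene-wise deviations of each other mouse with IL-2146 mouse 1 (x axis) and with IL-2146 mouse 2 (y axis), 1 point per mouse. The IL-1141 mouse lies at 0.63 and 0.72, apart from the 52 other mice, which reach 0.28 and 0.34 at most.

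The first comparison asked which genes lay outside everything seen in the other lines. Of 11284 genes with an FPKM of at least 2 in some mouse, 389 (3.45%) were higher in both IL-2146 mice than in all 53 other mice, and 554 (4.91%) were lower, together 8.36%. Of the 389, 15 had no other mouse that reached the FPKM minimum and so entered only through the IL-2146 mice. Without the IL-1141 mouse the counts were 415 and 567. The genes above were GC-rich and short, with a median GC content of 55.3% and a median length of 1283 bases, and the genes below were GC-poor and long, with 42.0% and 3658 bases. Over all genes tested the medians were 50.3% and 2187 bases.

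After correction, 132 of 10475 genes with a GC content (1.26%) were above all other mice and 324 (3.09%) below. Both before and after correction, 74 genes were above (0.706%) and 231 below (2.21%). Median GC contents after correction were 47.9% and 47.7%. The balance therefore shifted toward genes lower in IL-2146. Without IL-1141 the corrected counts were 162 and 351.

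The same count in the 15 other lines of 2 mice gave a scale for these numbers. As deposited, both mice of such a line were above all others for 0 to 382 genes, with a median of 73, and below for 2 to 435, with a median of 21. IL-2146 exceeded each of them in both directions. After correction, 2 of the 15 lines exceeded IL-2146 above and 1 exceeded it below. IL-2146 was then second to IL-4457 in the sum, which ran from 3 to 1044 over the 15 lines.

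**Figure D3:**
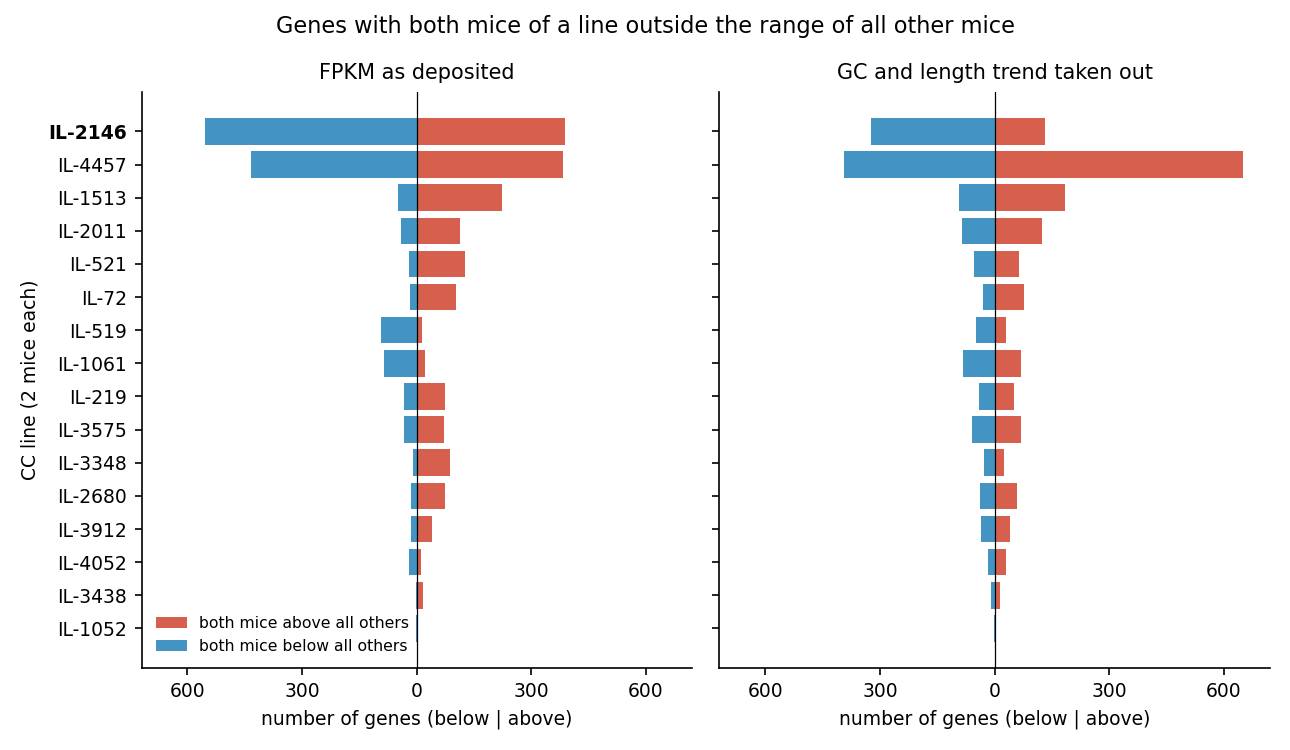
Number of genes (x axis) for which both mice of a line lay above (red, right) or below (blue, left) all mice of all other lines, for the 16 lines of 2 mice (y axis), as deposited and corrected. IL-2146, with 389 above and 554 below, has the longest bars as deposited, and after correction its 132 and 324 are exceeded in sum by IL-4457.

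The second comparison used edgeR's quasi-likelihood test on counts summed per line, with IL-2146 against the 28 other lines. It called 297 genes higher (2.63%) and 778 lower (6.89%), together 9.53%, at an adjusted p under 0.05. Of the genes above all other mice 175 were called higher, and of those below 423 were called lower. Mouse 1 carried much of this. With mouse 2 alone the test called 58 genes higher and 230 lower, and with mouse 1 alone 878 and 1544. After correction edgeR called 12 genes higher (0.115%) and 38 lower (0.363%), of which 3 and 37 were also called before. Of the other lines, leaving out IL-2126 moved the number of higher genes most, to 546. The median log2 difference over all genes was -0.05.

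Mitochondrially encoded genes were low together, and no other list tested had so large a share of members below. Of the 13 protein-coding genes, 10 were below all other mice in both IL-2146 mice, none was above, and edgeR called 12 lower. Over all genes 4.91% were below and 6.89% called lower. The median log2 difference of the 13 was -2.31, against -0.05 over all genes. Summed over the 13, the level was 7726 FPKM in mouse 1 and 29684 in mouse 2, against 42770 to 94164 in the other mice and 71118 in IL-1141. Mouse 2 thus lay below the lowest other mouse, and mouse 1 far below mouse 2.

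The genes of complex I, which passes electrons from NADH to ubiquinone, were low in both mice. The level of mt-Nd3 was 118 and 308 FPKM in the IL-2146 mice, against 580 to 3296 in the others with a median of 2265 over the line means. Its log2 difference was -3.37 (SE 0.40, edgeR adjusted p = 6.2e-06). The groups did not overlap, and the highest IL-2146 value lay well under the lowest of 53 others.
For mt-Nd2 the levels were 297 and 674 FPKM against 1464 to 5902, and for mt-Nd6, the subunit encoded on the opposite strand, 116 and 302 against 442 to 3122. Their log2 differences were -2.99 and -3.13 (edgeR adjusted p = 1.5e-04 and 2.5e-04). The authors report default parameters for their counting and name no strand option. Reads from overlapping genes on opposite strands, mt-Nd6 included, may therefore not be told apart. mt-Nd1 and mt-Nd4 were also below all others, at 430 and 1317 against 2215 to 6300 FPKM and at 659 and 1214 against 2407 to 5512 FPKM. The remaining subunits, mt-Nd4l and mt-Nd5, were called lower as well, but mouse 2 came close to the others. It had 539 FPKM of mt-Nd4l where the lowest other mouse had 611, and 692 FPKM of mt-Nd5 where the lowest had 751.

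Outside complex I, separation from the other mice varied between genes. mt-Cytb, the complex III subunit, had 563 and 2815 FPKM against 4275 to 8551 in the others, with a log2 difference of -1.94 (edgeR adjusted p = 4.3e-04). Of the complex IV (cytochrome oxidase) subunits, mt-Co3 had 462 and 3785 FPKM against 8509 to 16819, a log2 difference of -2.60 (SE 0.27, edgeR adjusted p = 8.3e-07). mt-Co1 did not keep this separation. Its level was 1946 FPKM in mouse 1 and 10432 in mouse 2, the latter within the 8015 to 20784 of the other mice, and the edgeR adjusted p of 0.033 became 0.50 with mouse 2 alone. mt-Co2 had 2704 and 5581 FPKM against 5059 to 16846 and was the only member not called (log2 difference -1.38, edgeR adjusted p = 0.061). For complex V, the ATP synthase, mt-Atp6 had 215 and 2016 FPKM against 3364 to 8744 (log2 difference -2.56). mt-Atp8 is very short and overlaps mt-Atp6, so its level is uncertain. It had 23.4 FPKM in mouse 1, within the 19.5 to 9635 of the others, and 7.35 in mouse 2, under all of them, and edgeR called it lower (log2 difference -7.94, SE 1.4, adjusted p = 4.2e-04).

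After correction 8 of the 13 were below all other mice and 7 were called lower by edgeR, with a median log2 difference of -1.88. Over all genes 3.09% were then below and 0.363% called lower. The corrected sums were 14728 and 35952 FPKM against 45824 to 100171. mt-Nd3 had a corrected log2 difference of -2.67 (edgeR adjusted p = 7.5e-05) and mt-Co3 one of -1.91 (adjusted p = 0.0029), while mt-Nd4, mt-Nd4l, mt-Nd5, mt-Cytb and mt-Co1 were no longer called. Several of these genes have a lower GC content than the lowest bin behind the correction, whose median was 39.3%, so the correction is flat there and may take out too little. For none of the 13 was IL-1141 nearer to the IL-2146 mean than to the median of the other lines. Over all genes it was nearer to IL-2146 for 39.1% as deposited and 49.2% corrected.

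Nuclear genes for the same organelle were looked at in 2 families, chosen after their values had been seen. Over all genes, 3.45% were above all other mice, 2.63% were called higher and the median log2 difference was -0.05. Of 36 nuclear complex I subunits tested, 5 were above all other mice and none below, and edgeR called 7 higher, with a median log2 difference of 0.39. Of 76 mitochondrial ribosomal proteins, 16 were above and none below, edgeR called 15 higher and 1 lower, and the median was 0.38. After correction 2 and 5 were above, against 1.26% of all genes, and the medians were 0.06 and 0.07, against -0.06 over all genes. Ndufa1, an accessory complex I subunit, had 279 and 235 FPKM against 109 to 226 (log2 difference 0.75, edgeR adjusted p = 0.014, adjusted p = 0.22 after correction). Mrps14, a small-subunit ribosomal protein, had 54.0 and 51.1 FPKM against 17.3 to 35.7, and its log2 difference grew from 1.01 (SE 0.20, edgeR adjusted p = 0.0014) to 1.27 (adjusted p = 0.0035) on correction. Atpif1, an inhibitor of the ATP synthase, had 57.6 and 54.4 FPKM against 11.5 to 38.9, a log2 difference of 1.28 (edgeR adjusted p = 0.0091, adjusted p = 0.38 after correction).

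Markers of the sinusoid wall were the next group. Of 12 markers of liver sinusoidal endothelium tested, 3 were below all other mice, none above, and edgeR called 4 lower. Over all genes 4.91% were below and 6.89% called lower. All 12 markers had a log2 difference under 0, with a median of -1.43. In bulk tissue fewer cells of a type and less RNA per cell cannot be told apart. Summed over the list, the level was 28.8 and 33.5 FPKM in IL-2146 against 31.8 to 152 in the other mice and 62.4 in IL-1141, so mouse 2 lay just inside the range.

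Kdr, the main VEGF receptor of endothelium, had 0.48 and 0.89 FPKM against 1.33 to 7.81, with a median of 3.63 over the other line means. Its log2 difference was -2.49 (SE 0.58, edgeR adjusted p = 0.0057), and it was the only marker of the list called after correction (-2.36, adjusted p = 0.038). IL-1141 had 2.71 FPKM. Oit3 was 0.67 and 0.70 FPKM against 1.48 to 9.49 (log2 difference -2.71, edgeR adjusted p = 0.017, adjusted p = 0.077 after correction). Lyve1, a hyaluronan receptor, was 0.01 and 0.08 FPKM against 0.16 to 9.73, but its spread among the other lines was wide and the test did not call it (log2 difference -5.25, SE 1.84, edgeR adjusted p = 0.067).
The other markers called, Fcgr2b and Pecam1, overlapped the other mice in 1 IL-2146 animal each. Fcgr2b, an inhibitory Fc receptor, had 2.19 and 4.75 FPKM against 4.0 to 28.2 (edgeR adjusted p = 0.018), and Pecam1, a junction protein, had 1.31 and 0.98 FPKM against 1.17 to 5.69 (adjusted p = 0.038). No defining marker was at 0. The scavenger receptors Stab1 and Stab2 and the cadherin Cdh5 lay within the range of the other mice, with Stab2 at 4.44 and 3.09 FPKM against 1.86 to 10.7.

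Correction widened this difference. Of the 12 markers 5 were then below all other mice, against 3.09% of all genes. The median log2 difference of the markers was -1.58, and the corrected sums of 24.3 and 30.6 FPKM lay under the 35.1 to 147 of the others. With mouse 2 alone, Kdr and Pecam1 passed (edgeR adjusted p = 0.040 and 0.049). IL-1141 was nearer to the IL-2146 mean than to the median of the other lines for 4 of the 12, as deposited and corrected. Over all genes this held for 39.1% as deposited and 49.2% corrected, so the markers were no more often shared with IL-1141 than other genes.

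Other genes known from vessels were among the genes below all others, chosen after their values had been seen. Calcrl, the adrenomedullin receptor, had 0.13 and 0.15 FPKM against 0.54 to 4.21, with a log2 difference of -3.62 (SE 0.69, edgeR adjusted p = 9.1e-04, corrected -2.54 and adjusted p = 0.022). The receptor tyrosine kinases Tek and Flt4 had 0.16 and 0.36 against 0.45 to 2.90 FPKM and 0.40 and 0.53 against 0.75 to 3.49 FPKM. Plvap, which forms the diaphragms of fenestrae, had 4.62 and 3.16 FPKM against 4.79 to 17.8, with a log2 difference of -1.42 that became -1.84 on correction (edgeR adjusted p = 0.0090 and 0.030). The GC content of Plvap was 60.5%. Nid1, a basement membrane protein, had 0.13 and 0.21 FPKM against 0.56 to 2.56, and Crim1 had 0.18 and 0.17 against 0.42 to 2.85. Both stayed called after correction (edgeR adjusted p = 0.035 and 0.027). For these last 2 genes the IL-1141 mouse was at 0.56 and 0.53 FPKM, at or near the low end of the others.

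Stellate cell and fibroblast markers were low too. Of 12 in the list 9 were tested, of which 4 were below all other mice, none above, and 4 were called lower by edgeR. Over all genes 4.91% were below and 6.89% called lower. All 9 markers had a log2 difference under 0, with a median of -1.88. The summed level was 34.4 and 29.0 FPKM against 44.5 to 195, with 74.3 in IL-1141, so both IL-2146 mice lay under all others. Rgs5, a pericyte regulator of G protein signalling, showed the widest gap. It had 0.37 and 0.55 FPKM against 2.83 to 16.9 (log2 difference -4.05, SE 0.84, edgeR adjusted p = 0.0020, adjusted p = 0.051 after correction). Dcn, the matrix proteoglycan decorin, had 9.24 and 9.62 FPKM against 14.2 to 99.2, and Lrat, which esterifies retinol for storage, had 0.22 and 0.59 against 0.72 to 3.99. Both were called lower (edgeR adjusted p = 0.046 and 0.020), and after correction neither was outside the others' range or called. Reln, an extracellular matrix protein, was 1.29 and 1.39 FPKM against 2.88 to 17.6 but was not called (edgeR adjusted p = 0.066). Ecm1 was called (edgeR adjusted p = 0.033), with 20.1 and 14.3 FPKM inside the 11.9 to 74.0 of the others. Acta2, the smooth muscle actin of activated stellate cells, was within their range at 1.59 and 0.45 FPKM against 0.21 to 7.29.

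After correction 5 of the 9 stellate markers were below all other mice, against 3.09% of all genes. The median log2 difference of the markers was -1.90, and no member was called. Colec10, a collectin that is not in the list, had 0.31 and 0.72 FPKM against 2.27 to 11.1 (log2 difference -3.29, edgeR adjusted p = 0.0037, adjusted p = 0.061 after correction). IL-1141 was nearer to the other lines' median than to IL-2146 for all 9. Over all genes it was nearer to IL-2146 for 39.1% as deposited and 49.2% corrected.

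**Figure D4:**
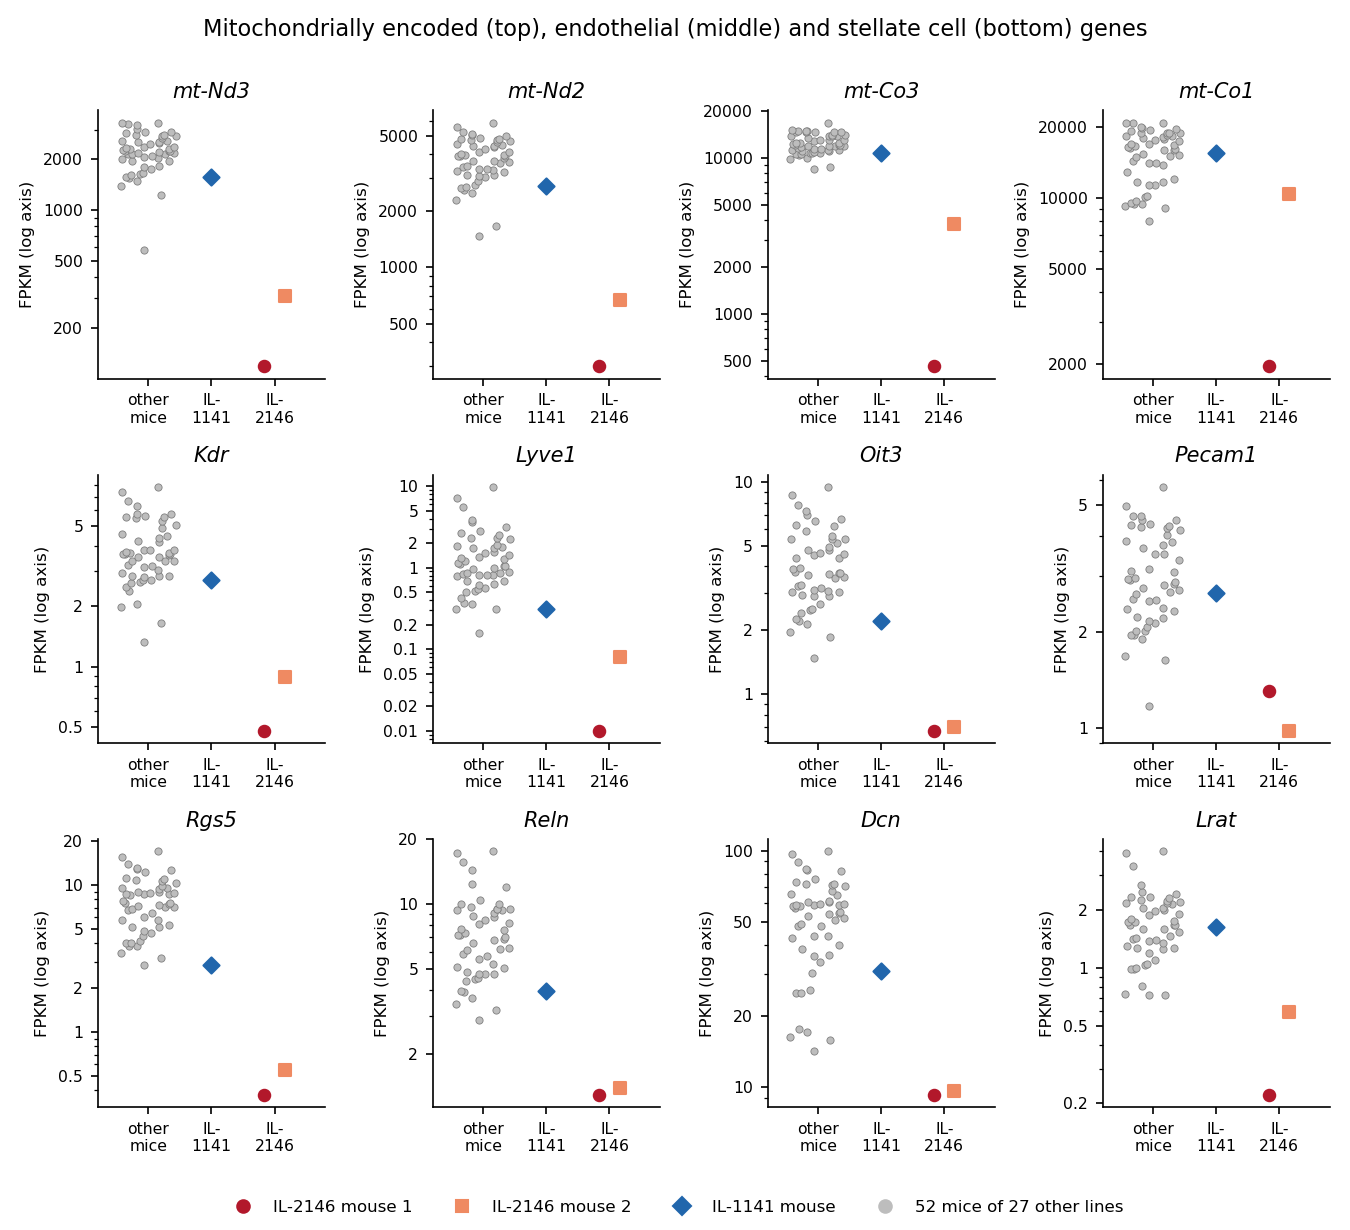
FPKM on a log axis (y axis) of mitochondrially encoded genes (top row), endothelial markers (middle) and stellate markers (bottom) in each mouse, with IL-2146 mouse 1 and mouse 2 in red and orange, IL-1141 in blue and the 52 mice of 27 other lines in grey. For mt-Nd3 the IL-2146 values of 118 and 308 and for Rgs5 those of 0.37 and 0.55 lie under every other mouse, while mt-Co1 in mouse 2 (10432) and Pecam1 in mouse 1 (1.31) fall inside the others' range.

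Marker lists of other non-hepatocyte cells held no member outside the other mice. Of 12 Kupffer cell and macrophage markers none was outside the other mice and none was called, with a median log2 difference of -0.16 and summed levels of 113 and 87.5 FPKM within the 23.3 to 647 of the others. None of the tested markers of cholangiocytes, B and plasma cells, T and NK cells, neutrophils, erythroid cells, adipocytes, exocrine pancreas and gall bladder or gut was outside or called. Medians under 0 were not particular to endothelial and stellate markers. Every tested member was under 0 in exocrine pancreas (median -8.78, 11 members), neutrophils (-1.45, 7) and B and plasma cells (-1.79, 5). The median was -6.28 for adipocytes and 0.93 for erythroid cells. These differences are against the mean of the other lines, which high lines can raise. Summed pancreas markers were 27.7 and 15.3 FPKM, against a median of 23.0 in the other mice. Hepatocyte markers were abundant in both mice, as the liver label requires. Their summed level was 86027 and 66458 FPKM against 40720 to 84720 in the other mice, whose median was 61369. Of 10 tested, 4 had a log2 difference under 0, and the median was 0.03. Apoa1 was above all others and Apob was called lower. Albumin had 43254 and 31174 FPKM of Alb against 8656 to 50167.

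Of 18 clock genes tested, 3 were outside the other mice, against 8.36% of all genes. Dbp was above all other mice and Arntl and Clock were below. edgeR called 1 of the 18, Clock, lower, a share near the 6.89% of all genes called lower. Dbp, a transcription factor whose RNA cycles daily, had 140 and 108 FPKM against 0.50 to 85.2, with a median of 26.5. Arntl, the partner of CLOCK, had 0.26 and 0.11 FPKM against 0.30 to 8.39. Both genes varied widely among the other lines, and neither log2 difference passed the test (1.97, SE 1.04, edgeR adjusted p = 0.25 for Dbp and -3.77, SE 1.79, adjusted p = 0.19 for Arntl). Clock had 1.17 and 1.27 FPKM against 1.32 to 7.88 (log2 difference -1.89, edgeR adjusted p = 0.025), and after correction it was inside the range (-1.11, adjusted p = 0.41). The corrected levels of Nfil3, a repressor that opposes Dbp, were below all others, with deposited levels of 3.60 and 2.74 FPKM against 3.07 to 51.8. The period genes and Nr1d1 were inside the range, with Per1 at 5.18 and 4.33 FPKM against 0.10 to 8.63. IL-1141 stood near IL-2146 for these genes, with 72.3 FPKM of Dbp, 0.42 of Arntl and 3.07 of Nfil3. The hour of collection was not given for any mouse, and its part in these differences was not tested.

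Among genes above all others and called higher, leaving out predicted genes, Atp1b2, a sodium pump beta subunit, had the largest log2 difference. It had 3.03 and 1.22 FPKM against 0.06 to 1.16, where 1.16 was the IL-1141 mouse (log2 difference 3.29, SE 0.71, edgeR adjusted p = 0.0031, corrected 3.14 and adjusted p = 0.032). Mouse 2 thus only just passed IL-1141, and with mouse 2 alone the edgeR adjusted p was 0.095. Its neighbour Shbg, the sex hormone-binding globulin, which lies at chr11:69428306-69431407, next to Atp1b2 at chr11:69413238-69419444, was also detected in all 3 mice, with 5.25 and 0.88 FPKM in IL-2146 and 2.84 in IL-1141, and was at 0.49 FPKM or less in the 52 others. Since IL-1141 had more Shbg than mouse 2, it did not count among the genes above all others.

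C8b, the beta chain of complement C8, was the most abundant of the strongly higher genes. It had 419 and 500 FPKM against 103 to 311, with 264 in IL-1141 (log2 difference 1.34, SE 0.30, edgeR adjusted p = 0.0046). Its GC content of 48.2% was near the median, and correction left the difference at 1.33 (edgeR adjusted p = 0.070). Both mice carried it, with an edgeR adjusted p of 0.0053 for mouse 2 alone.

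Other genes in this group lost most of their difference or their call on correction. Gamt had 277 and 265 FPKM against 55.5 to 194 (log2 difference 1.24, SE 0.33, edgeR adjusted p = 0.015), and 0.72 (adjusted p = 0.49) after correction, with both mice still above all others. Slc2a5, the fructose transporter, had 10.5 and 9.20 FPKM against 1.31 to 8.2 (log2 difference 1.5, edgeR adjusted p = 0.020, adjusted p = 0.27 after correction). Alkbh2, a DNA demethylase, had 16.8 and 11.6 FPKM against 1.21 to 9.78. Gnat1, the transducin alpha subunit of rods, had 14.8 and 11.4 FPKM against 0.55 to 10.7. The log2 differences were 2.08 and 2.00, and after correction mouse 2 of each was inside the others' range. Marveld1, Mri1, Xrcc6bp1 and Ccdc28b were then no longer above the IL-1141 mouse in both animals, but both IL-2146 mice and IL-1141 were above the 52 remaining mice. In Marveld1, Ufsp1, Xrcc6bp1, Ccdc28b and Mri1 the highest of the 53 other mice was IL-1141.

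**Figure D5:**
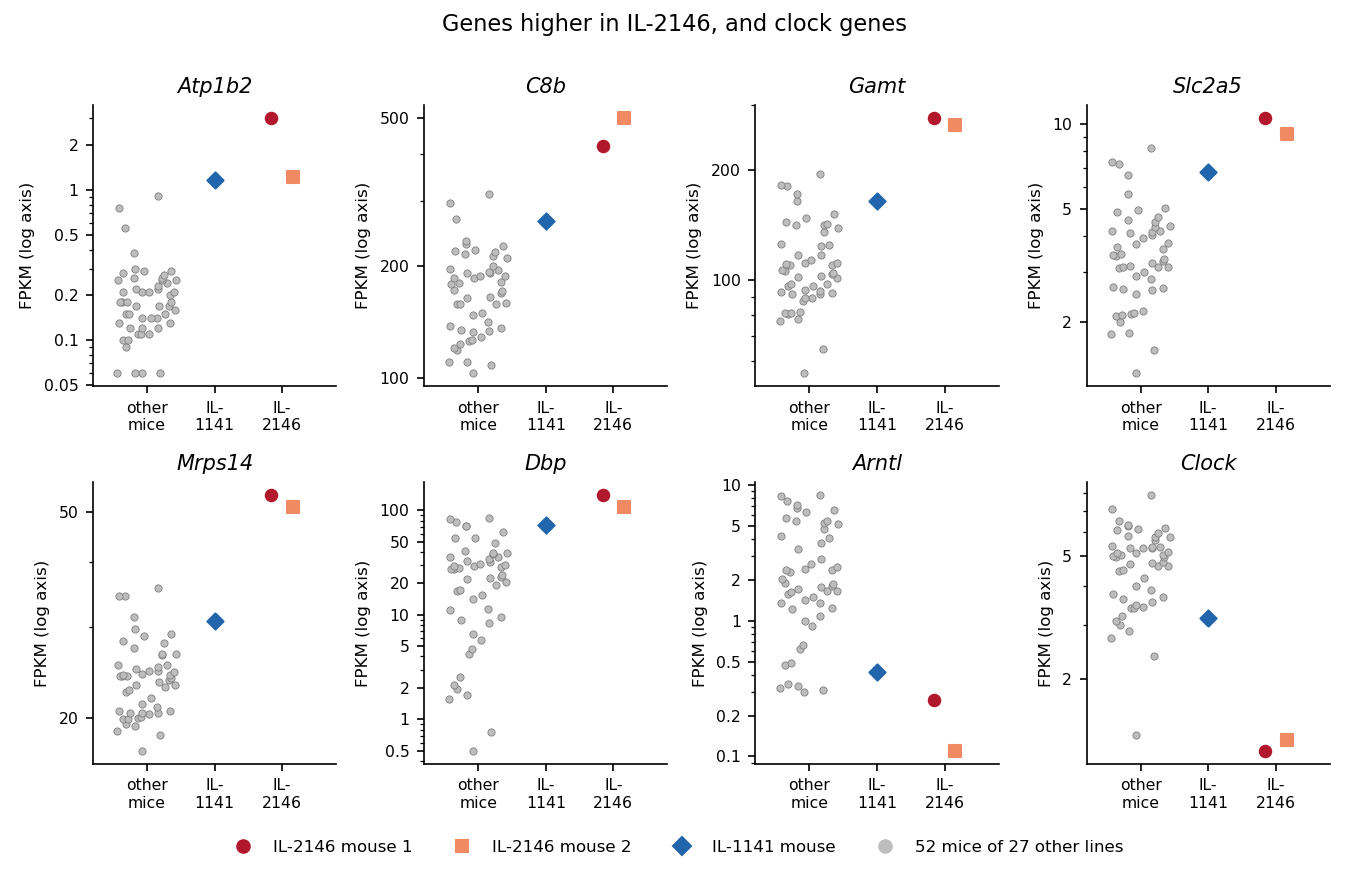
FPKM on a log axis (y axis) of genes higher in IL-2146 and of the clock genes Dbp, Arntl and Clock in each mouse, coloured by line as IL-2146 mouse 1, mouse 2, IL-1141 and 52 other mice. C8b (419 and 500) and Mrps14 (54.0 and 51.1) stand clear of all other mice, Atp1b2 of mouse 2 (1.22) is next to IL-1141 (1.16), and Dbp lies above and Arntl below the others.

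Among abundant genes the differences were smaller. Tpi1, a glycolytic enzyme, had 338 and 281 FPKM against 136 to 259 (log2 difference 0.61, edgeR adjusted p = 0.036). Aldh7a1, a lysine-degrading dehydrogenase, had 403 and 311 FPKM against 116 to 305, the latter in IL-1141 (log2 difference 0.68, edgeR adjusted p = 0.036). Sepx1, a methionine sulfoxide reductase, had 468 and 372 FPKM against 191 to 343, and Ctsz, a lysosomal protease, 238 and 186 against 97.5 to 170. None of these 4 was called or above all other mice after correction. For Aldh7a1, both IL-2146 mice and IL-1141 were then still above the 52 remaining mice.

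The lists for liver metabolism and drug disposition held few genes outside the other mice, against 3.45% of all genes above, 4.91% below, 2.63% called higher and 6.89% called lower. Of the 30 drug disposition genes that the study linked to a total-expression eQTL, a list chosen on these same samples, none was outside the other mice and none was called. After correction 1 of the 30 was below all others, against 3.09% of all genes, and none was called. Of 38 other cytochromes P450, 2 were below and both were called lower, a share near that of all genes, with a median log2 difference of -0.77 (-0.52 corrected) and 28 of 38 under 0. Cyp2j5, an arachidonic acid epoxygenase, had 93.8 and 126 FPKM against 141 to 357, where 141 was IL-1141 and the lowest of the remaining mice had 176 (log2 difference -1.26, SE 0.29, edgeR adjusted p = 0.0049, corrected -0.82 and adjusted p = 0.27). Cyp2r1, a vitamin D 25-hydroxylase, had 2.2 and 2.89 FPKM against 3.24 to 12.0 (log2 difference -1.41, edgeR adjusted p = 0.047). Both stayed below all others on correction without being called. Of the 38, 1 was then above all others, and it was not called.

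Of 21 hepatic transporters, Slc22a7, an organic anion carrier, was above all others with 110 and 92.4 FPKM against 5.29 to 87.9 (edgeR adjusted p = 0.27). Abcc9, a potassium channel subunit that vessel wall cells use, was below with 0.25 and 0.35 FPKM against 0.45 to 3.10 (log2 difference -2.43, edgeR adjusted p = 0.0076, adjusted p = 0.084 after correction). Slco1b2, an uptake carrier of bile acids and drugs, was called lower with 99.5 and 225 FPKM against 174 to 484 (log2 difference -1.05, edgeR adjusted p = 0.025), but its GC content was 38.6% and the corrected difference was -0.07. Of 48 conjugation enzymes 2, Gsto1 and Mgst1, were above all others and neither was called. Of 44 esterases and other phase I enzymes none was outside, and 1, Adh5, was called higher (log2 difference 0.42, edgeR adjusted p = 0.040).

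Of 22 bile acid genes, Cyp39a1, an oxysterol hydroxylase, was below all others at 0.11 and 0.07 FPKM against 0.13 to 19.8 (edgeR adjusted p = 0.073), and IL-1141 had 0.25. Of 24 nuclear receptors, Rora was below at 2.54 and 3.21 FPKM against 4.30 to 11.8 (log2 difference -1.27, edgeR adjusted p = 0.012, corrected -0.51 and adjusted p = 0.69), and Thrb was also called lower (adjusted p = 0.043). Of 33 fatty acid oxidation genes, 1, Acads, was above all others and was not called, and 1 was below. The latter was Pdk4, the fasting-induced kinase that shuts down pyruvate oxidation, at 0.09 and 0.11 FPKM against 0.53 to 9.71. Its log2 difference was -4.50 (SE 1.45, edgeR adjusted p = 0.046, adjusted p = 0.25 after correction), and IL-1141, at 0.60 FPKM, was near the low end. Of 20 Nrf2 antioxidant genes, Taldo1 and Keap1 were above all others and 1 was called higher, and after correction none was outside or called. Ifit2 and Gbp2, of 37 interferon-stimulated genes, and Serpina3f, of 21 Serpina protease inhibitors, were below all others and not called. Over all genes 3.45% were above and 4.91% below.

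As deposited, no member tested was outside the other mice or called among 24 cholesterol, 23 lipogenesis, 20 glucose, 20 urea cycle and periportal, 32 acute phase, 21 major urinary protein, 29 male-predominant and 32 female-predominant genes, or among 20 MHC class I and 7 MHC class II genes. After correction 1 of these, the tryptophan-degrading enzyme Tdo2 of the periportal list, was above all others and was not called (edgeR adjusted p = 0.82). The female-predominant genes had a median log2 difference of -1.78 (-1.37 corrected), with 26 of 32 under 0. Their summed level was 627 FPKM in mouse 1 and 2490 in mouse 2. In the other mice it ran from 216 to 15120 with a median of 773, so mouse 2 lay above the median mouse. Of 17 lipid droplet genes none was outside or called, with a median of -0.89 (-1.03 corrected), and after correction Plin2, a droplet coat protein, was below all others. Of 34 heat shock and ER chaperones none was outside, and the ER proteins Canx and Pdia3 were called lower (log2 differences -0.64 and -0.74, edgeR adjusted p = 0.0093 and 0.049). The chaperones had a median of -0.41 (-0.50 corrected), with 25 of 34 under 0 and 30 after correction. Of 15 growth hormone axis genes, Igfals was above with 58.1 and 58.7 FPKM against 15.2 to 57.0 and Igfbp3 below with 0.65 and 0.90 against 1.44 to 30.8, neither called. Both proteins are part of 1 serum complex that holds IGF1. Jak2 was called lower (log2 difference -0.64, edgeR adjusted p = 0.047) and its corrected difference was -0.13.

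Secreted proteins differed in parts. Of 40 complement and coagulation genes, C8b was above all others and was called higher together with C2, the complement protease, at 207 and 199 FPKM against 30.2 to 222 (log2 difference 1.15, edgeR adjusted p = 0.013, adjusted p = 0.25 after correction). F9, a clotting protease, and Cfhr2, a factor H relative, were called lower (log2 differences -0.92 and -1.49, edgeR adjusted p = 0.011 and 0.031). Both are GC-poor, at 39.0% and 37.1%, and the corrected differences were -0.01 and -0.67. Of 22 apolipoproteins, Apoa1 had 11260 and 12291 FPKM against 3521 to 10750 and Apoe 17069 and 14994 against 5952 to 14898, both above all others and neither called. Apoc1 was called higher (log2 difference 0.73, edgeR adjusted p = 0.048) and Apob lower (-0.83, adjusted p = 0.028). None of the 4 was outside or called after correction, and the difference of Apoe turned from 0.54 to -0.03.

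Among the genes with the largest falls, zinc-finger genes formed a family of their own. It was chosen after its values had been seen. Of 178 Zfp genes tested, 28 were below all other mice and 3 above, and edgeR called 42 lower and 1 higher, with a median log2 difference of -0.42. Over all genes 4.91% were below and 6.89% called lower, with a median of -0.05. The median GC content of the Zfp genes was 45.5%, and after correction 13 were below, against 3.09% of all genes, 1 was above and the median was -0.22. Zfp960 had 0.20 and 0.55 FPKM against 1.41 to 4.36 and 2.60 in IL-1141 (log2 difference -2.79, SE 0.34, edgeR adjusted p = 6.3e-06, corrected -1.86 and adjusted p = 0.0014). It was thus low in both mice whether or not the trend was taken out.

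Several lay together on chromosome 17. From chr17:21145905 to 22593656 (NCBI37/mm9), 7 of 12 genes tested were below all other mice and none of the 12 had a log2 difference above 0, namely Zfp160, Zfp52, 2210404O09Rik, Zfp942, Zfp943, Zfp758 and Zfp946. Zfp758 had 0.29 and 0.26 FPKM against 0.40 to 3.79 and Zfp942 0.62 and 0.57 against 1.10 to 4.52. Their corrected log2 differences of -1.70 and -1.27 were still called (edgeR adjusted p = 0.021 and 0.023), but neither was then below all other mice. Zfp119a, Zfp959 and Zfp119b, at chr17:56004469-56084597, and Zfp930, Gm10033 and Zfp869, on chromosome 8, were below all others before and after correction. Such genes share sequence with near copies, and how their reads were divided by the counting is uncertain.

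In all, 35 runs of at least 3 genes above and 35 runs below were found, with neighbours at most 1 Mb apart, and 3 and 9 after correction. Among the runs above with at least 10 genes, the densest was chr8:86773805-87606238, where 10 of 26 genes tested were above all others and 24 had a log2 difference over 0. It holds Gcdh, a lysine-degrading enzyme, Rnaseh2a, the catalytic subunit of RNase H2, and Mri1. Rnaseh2a had 18.1 and 23.4 FPKM against 6.06 to 14.7 (log2 difference 0.85, edgeR adjusted p = 0.0060, corrected 0.43 and adjusted p = 0.51). This run did not persist on correction. Among those found after correction were Col1a2, Sgce and Pdk4 on chromosome 6 and Calcrl, Tfpi and Slc43a3 on chromosome 2.

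By chromosome, X held the largest share of genes below among the autosomes and X, 35 of 320 (10.9%, against 4.91% of all genes), and chromosome 17 the largest share above, 35 of 574 (6.10%, against 3.45%). After correction these were 15 of 276 (5.43%, against 3.09%) and 15 of 539 (2.78%, against 1.26%).

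Remaining genes among the largest falls had no list in common. Ifi203, an interferon-inducible gene with close copies, had 0.13 and 0.14 FPKM against 0.56 to 6.35 (log2 difference -4.15, edgeR adjusted p = 0.019, adjusted p = 0.22 after correction). Impad1, a Golgi phosphatase, had 0.43 and 0.75 against 1.08 to 10.5 FPKM, with 1.23 in IL-1141 (log2 difference -3.45, edgeR adjusted p = 0.026), and overlapped the others after correction. A second entry named Cd47 was below all others at 0.13 and 0.58 FPKM against 1.41 to 15.8, while the main Cd47 gene was inside the range at 23.0 and 26.8 against 18.6 to 56.5 and the division of reads between the 2 entries is uncertain.

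The likeness to IL-1141 was followed gene by gene. Both IL-2146 mice and the IL-1141 mouse were above the 52 remaining mice for 68 genes and below for 50, and 28 and 26 of these also held after correction. These genes were chosen by their values and are a description. Eci3, a peroxisomal isomerase of fatty acid oxidation, had 26.5 and 20.8 FPKM in IL-2146 and 24.9 in IL-1141, and at most 11.8 elsewhere. Ercc3, a helicase of transcription factor TFIIH, had 16.3, 17.7 and 14.7 FPKM, against 5.0 to 10.9 in the 52. Whamm, an actin nucleation promoter, had 25.4, 21.1 and 21.5 FPKM against 5.82 to 16.5.
On the low side, the 3 mice had 0.42, 0.69 and 0.78 FPKM of Qpct, a glutaminyl cyclase, against 1.27 to 22.8 in the others. Agtr1a, the angiotensin II receptor, had 10.0, 10.7 and 9.37 FPKM against 13.5 to 44.6. The transcript 1700024P16Rik had 0.25, 0.18 and 0.39 FPKM against 1.24 to 4.74. In these genes the 3 mice formed 1 group that the 52 others did not reach. The mitochondrial and stellate differences described above were not of this kind, since IL-1141 lay nearer to the other lines for every member tested.

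Isoform ratios were compared last. The isoform ratio is the share of a gene's transcripts given by 1 isoform, and it was tested in 4967 genes with an FPKM of at least 2 in every mouse. Of 29803 isoforms, 88 had a share above all other mice in both IL-2146 mice by at least 5 percentage points and 63 below, together 0.507%. Isoform shares were used as deposited, with no correction for GC content or length. They belonged to 108 genes, of which 10 also had a total outside the other mice.

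Amylase Amy1, the starch-digesting enzyme, showed the clearest switch. Its isoform ENSMUST00000106540 made up 44.4% and 44.0% of transcripts in IL-2146 and 72.0 to 98.4% in the others, and ENSMUST00000166887 made up 52.6% and 54.7% against 0 to 26.5%. IL-1141 had 96.1% and 0%. The shares rested on 4978 and 7178 reads of the gene and differed little between the 2 mice.
Fundc1, a receptor for mitophagy, had the widest gap. ENSMUST00000026016 gave 22.4% and 30.1% of its transcripts against 63.9 to 100% elsewhere, on 149 and 127 reads only. For Paip1, a translation factor that binds the poly(A)-binding protein, ENSMUST00000109203 gave 11.6% and 12.6% against 39.5 to 71.8%, and ENSMUST00000174691 38.2% and 26.5% against 0 to 2.85%. The histone gene H3f3b had 44.7% and 63.5% of ENSMUST00000016703 against 83.7 to 99.8%. In Elmod2, ENSMUST00000150124 reached 53.6% and 48.1%, and the highest other value, 25.4%, was that of IL-1141.
IL-1141 was nearer to IL-2146 than to the others' median for 13 of the 151 isoforms (8.61%) and for none of the 10 with the widest gap. These isoforms were chosen for lying outside all other mice, IL-1141 included. Isoforms that IL-1141 shares with IL-2146 were therefore largely kept out, and the low share cannot tell whether the lines are alike. The share over all isoforms was not computed. The number of isoforms without the IL-1141 mouse was 155. With 1 IL-2146 mouse in place of both it was 294 for mouse 2 and 951 for mouse 1, so most shares outside the others' range in mouse 1 were not so in mouse 2.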

How the data were processed

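Liver RNA of 55 male mice of 29 CC lines was sequenced by the authors as paired-end 50-base reads of stranded poly(A) libraries and quantified with RSEM 1.2.18 on the mouse NCBI37/mm9 genome with an Ensembl annotation. The deposited tables hold, per gene and isoform, an expected count (a read count estimated by the authors' RSEM run), TPM and FPKM, and per isoform a percent of its gene's transcripts (IsoPct), all made by the authors per mouse. Of 37620 genes in the files, 37205 were matched by Ensembl ID to a symbol and mm9 position. Total estimated counts ran from 20542700 to 33953000 per mouse. Intervals were not computed, and the spread between lines, not the depth, set the errors given.

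A gene was tested where its FPKM reached 2 in at least 1 mouse. It was called outside where both IL-2146 mice lay above or below all 53 other mice. For the test, expected counts were rounded, summed per line and fitted with edgeR 4.0.16 (quasi-likelihood, TMM factors, R 4.3.3) as IL-2146 against the 28 other lines, with Benjamini-Hochberg adjusted p-values over all genes tested and 0.05 as the threshold. Differences are log2 of IL-2146 over the mean of the other lines on the fitted scale, with approximate standard errors (SE). Each SE was worked back from the test, as the absolute log2 difference divided by the square root of the F statistic. The median of the other line means is given as the typical level.

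The correction, added after the data had been seen, took from each mouse's log2(FPKM + 0.5), and from each line's counts as an offset, the median deviation in 20 bins of transcript GC content and of length, held flat beyond the outer bins. Genes without a GC content were left out of it. The uncorrected fit and a fit corrected for GC content alone were tested on simulated counts. The correction for GC content and length was tested on simulated levels only, without edgeR.

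Genes named were the 12 with the largest and the smallest log2 difference among genes outside and called, leaving out predicted and clone names, the 8 with the largest FPKM difference in each direction, members of gene lists that were outside or called, genes of runs of at least 3 genes outside with neighbours at most 1 Mb apart, and the 10 isoforms with the widest gap. Of these, those that the text needs are printed, and genes outside the rule are said to be chosen after their values had been seen. The line, the gene lists and the rules were chosen with earlier results of these data known. The mice labelled IL-1052 and IL-2750 do not separate by line in expression. They were kept and left out in an alternative. The alternatives were TPM, CPM, other filters, DESeq2 1.42.0, limma 3.58.1, the mouse as unit, covariates, and leaving out mice or lines. Sequences were read from the mm9 reference given with the data.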

Additional observations from a re-analysis of the deposited data

How the results depend on the processing

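Mouse 1, the GC and length trend and the choice of unit set the counts. With 1 IL-2146 mouse left out, genes above all others numbered 540 to 1349, genes below 672 to 1587, edgeR calls 58 to 878 higher and 230 to 1544 lower, and isoforms 294 to 951. After the GC and length correction the 4 gene counts were 132, 324, 12 and 38. The correction without IL-1141 gave 162, 351, 18 and 57, and with 1 mouse left out 295 to 485 above, 527 to 889 below, 7 to 85 higher and 32 to 245 lower. Comparing line means with the range of line means gave 1166 above and 1384 below. Without the lines of 1 mouse 594 genes were above and edgeR called 735 higher. edgeR's own expression filter gave 490 higher. limma gave 140 higher and 435 lower with a pseudocount of 1, and 148 higher with 0.1. DESeq2 gave 1300 lower. The mouse as unit, which treats line mates as independent, gave 3439 higher and 2700 lower. Leaving out each other line in turn moved the edgeR counts between 255 and 546 higher and 707 and 846 lower, with 546 for the fit without IL-2126. TPM gave 296 above and 481 below, and TMM-scaled CPM 543 and 725.

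Of the endothelial markers 3 were below all others as deposited, 5 after correction with or without IL-1141, 4 to 6 with 1 mouse left out and 5 to 9 with both changes. Without IL-1141 the uncorrected numbers of mitochondrial, endothelial and stellate genes below stood at 10, 3 and 4. Of the stellate markers 4 were below, and 6 to 7 after correction with 1 mouse left out.

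Of 91 genes followed through the alternatives (76 with a minimum FPKM of 5 and 90 with DESeq2), the correction left 34 on the same side of the threshold in the same direction, 56 lost their call and 1 turned. The 34 include genes called neither before nor after correction, such as Lyve1, Reln and Apoa1, so fewer than 34 kept a call. The gene that turned was Apoe, at -0.034, and at -0.082 without mouse 1, -0.022 without mouse 2 and -0.021 without IL-1141. Correction with a mouse or IL-1141 left out also turned Gpx4 (-0.067), Slco1b2 (0.11), Mgst1 (-0.043), F9 (0.020 without mouse 2 and 0.0082 without IL-1141) and Apob (0.0070). The cause was not tested. No paired analysis was possible because mice were numbered only in accession order within a line. Depth was not the limit for abundant genes, but levels under 1 FPKM rest on few reads, and with 2 mice of 1 line no test separates the line from its housing, batch or RNA quality.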
